A study of Mus musculus with 6 samples.

Results

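The genes described here encode the extracellular matrix: the collagen chains, the laminin chains and a set of matricellular proteins, proteoglycans and linkers that bind them. A gene was taken if its name in the files begins with the collagen or laminin chain pattern, and Fn1, Sparc, Spp1, Thbs1, Thbs2, Tnc, Cyr61, Ctgf, Tgfbi, Postn, Bgn, Dcn, Lum, Vcan, Fbn1, Hspg2 and Nid1 were added by name. This gave 72 of the 26754 genes in the files. Col4a3bp fits the name pattern but encodes a ceramide transporter and no collagen chain. It stays in all counts, medians and sums of matrix genes below. Col21a1 and Col26a1 were not analysed here. The series holds 6 mouse libraries, 3 from day 7 and 3 from day 14 after B16 melanoma cells were implanted under the skin of female C57BL/6J mice, labelled as genotype C57 and aged 6 to 8 weeks. Tumour suspensions of both days were passed over CD8a magnetic beads and labelled as CD8+ T cells, and poly-A RNA was sequenced. Neither day carries a drug or an engineered allele, and the labels do not say whether libraries came from separate or pooled mice. P-values therefore measure only the spread between these samples, which may be technical.

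Matrix proteins are secreted mainly by fibroblasts, mural cells, endothelial cells and many tumour cells. Fibrillar collagens such as type I and type III give a stroma its tensile strength, while type IV collagen and laminins form the sheet of the basement membrane, which nidogen and perlecan link together. Matricellular proteins sit in the matrix without being part of its scaffold and signal to cells through integrins and other receptors. T cells themselves are not known as a main source of collagen.

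Reads assigned to genes ranged from 6523019 to 9313078 in the day 7 libraries and from 11385106 to 13316522 in those of day 14. Between 13133 and 13806 genes had a read on day 7 and between 18318 and 19053 on day 14. Day 7 replicates 1 and 2 agreed nearly within counting error of fragments, with 2 reads taken as 1 fragment. Their chi-square ratio per gene had a median of 1.11, where 1 would be counting error alone. Against replicate 3 the median was 40.9 for replicate 1 and 44.4 for replicate 2. Replicates 1 and 2 were averaged and counted as 1 sample, so that day 7 has n = 2 and day 14 n = 3. All 6 libraries are shown wherever values are given. The label of CD8+ T cells was checked against markers. Transcripts of 14 T cell markers summed to 1170 to 1240 CPM (reads scaled to the reads assigned to genes in the library) on day 7 and 345 to 369 on day 14, while 10 melanocyte markers of the melanoma summed to 14900 to 15400 and 26600 to 28900 CPM. Macrophage markers (12 genes) summed to 1590 to 1940 CPM on day 7 and 3030 to 3090 on day 14. Summed melanocyte markers exceeded summed T cell markers in every library, and which cells carried the matrix transcripts was not tested. In bulk samples, fewer cells of a type and less RNA per cell cannot be told apart.

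Cyr61, Thbs1 and Fn1 rose from day 7 to day 14, by about 4.01, 2.26 and 1.82 on the log2 scale, and no tested matrix gene fell. They were 3 of the 18 matrix genes that had enough reads to be tested. Over all 6691 genes tested, 3.65% were called higher, 4.8% lower and 8.44% in either direction. Calls are at an adjusted p under 0.05 by limma on log2(RPKM + 1), where RPKM is the reads of a gene scaled to its length and to all reads assigned to genes. Of the 18 genes, 14 had a positive and 4 a negative log2 fold change, with a median of 0.61 beside 0.156 over all tested genes, and 9 had an unadjusted p under 0.05, each with a positive fold change. Of all tested genes, 21.1% had such a p, 12.4% higher and 8.71% lower. The count depends on the fit: without weights 7 of the 18 genes were called, all higher, beside 1011 of all genes (15.1%), and by limma-voom on the recovered reads 11 were called beside 1873 (28%), 9 higher and 2 lower, the latter Col4a3bp and Col11a2. The other 54 of the 72 lay under the minimum mean of 20 CPM, and none of them exceeded 6.86 RPKM in any library. Among the tested genes, 15 reached that minimum on both days, while Cyr61, Col4a2 and Vcan reached it on day 14 only, so the direction of these 3 is partly set by the filter. The matrix genes together took 0.182% to 0.211% of reads on day 7 and 0.28% to 0.294% on day 14.

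Cyr61, a matricellular protein (CCN1) that binds integrins and a common readout of the YAP and TEAD transcription factors, changed most. Its gene lies on the minus strand of chromosome 3 (145646976 to 145649981, GRCm38), and its promoter is shown because no other matrix gene moved as far. RefSeq's bases of chr3:145649986-145650235 (GRCm38.p6, minus strand), which end just before the start of the gene, read as follows, with capitals marking the single match to the TEAD motif.

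Cyr61: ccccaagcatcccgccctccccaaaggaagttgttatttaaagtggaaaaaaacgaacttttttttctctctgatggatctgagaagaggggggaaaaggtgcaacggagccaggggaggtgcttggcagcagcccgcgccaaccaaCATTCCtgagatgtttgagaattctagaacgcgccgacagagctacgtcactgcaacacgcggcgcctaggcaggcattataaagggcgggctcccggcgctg

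The TEAD motif was searched as GGAATG on both strands, and the match begins 103 bases before the start. A TATA motif, searched as TATAAA, begins 25 bases before the start. Of all 32851 RefSeq mouse windows from 250 bases before to 50 bases after a start, 14.7% hold the TEAD letters and 13.6% the TATA letters. Other motifs were searched too. The Cyr61 window held 2 matches to the GC box, searched as GGGCGG, which 35.7% of all windows hold. It held 0 matches to the AP-1, SMAD, hypoxia response, MITF E-box and CArG box motifs. Among the 15 windows that matched 14 of the tested matrix genes, 1 held the TEAD letters, and it is this one. No window was matched for Fn1, Thbs1, Lamc1 and Lama4, so their promoters were not searched. A match is a description of the letters and not evidence of binding.

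Cyr61 was listed at 0.373, 0.106 and 0.911 RPKM in the day 7 libraries, from 6, 2 and 12 reads, and at 27.0, 21.6 and 23.2 RPKM in those of day 14, from 620, 549 and 625 reads. Every day 14 library lay far above every day 7 library. The mean rose from 0.575 ± 0.475 (SD, n = 2) to 24.0 ± 2.73 (SD, n = 3), a log2 fold change of 4.01 (SE 0.45, interval 3.1 to 4.93, limma adjusted p = 2.4e-08). By limma-voom on the recovered reads the log2 fold change was 5.78 and the call was lost (adjusted p = 0.0817). Ctgf (CCN2), its close relative and another target of YAP, stood at 0.175, 0 and 1.71 RPKM on day 7 and at 2.21, 2.95 and 2.41 on day 14. The days did not overlap for Ctgf either, but it lay under the filter and was not tested, and in the files' annotation it shares exon bases with the opposite-strand gene model Gm15270.

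Thbs1, thrombospondin 1, is an inhibitor of blood vessel growth, an activator of latent TGF-beta and a ligand of CD36 and CD47. It was at 8.97, 10.3 and 4.82 RPKM on day 7 and at 36.6, 37.4 and 35.9 on day 14. The day 14 libraries lay close together and above each day 7 library, of which replicate 3 was the lowest. From a mean of 7.23 ± 3.41 (n = 2) it rose to 36.6 ± 0.741 (n = 3), with a log2 fold change of 2.26 (SE 0.46, interval 1.32 to 3.19, limma adjusted p = 0.000684). Thbs2, the second thrombospondin of the set, had 0 reads in all 3 day 7 libraries and at most 0.161 RPKM on day 14.

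Fn1, fibronectin, is the main adhesive glycoprotein of the provisional matrix and the ligand of the integrin of alpha-5 and beta-1 chains. Day 7 libraries held 9.64, 9.48 and 8.4 RPKM, and day 14 libraries 32.1, 36.5 and 33.9. The day 7 values were alike in all 3 libraries, including replicate 3, which stood apart from the others across the genome. The mean rose from 8.98 ± 0.825 (n = 2) to 34.2 ± 2.24 (n = 3), with a log2 fold change of 1.82 (SE 0.29, interval 1.22 to 2.42, limma adjusted p = 3.03e-05). Opposite-strand gene models share 2.5% of the length of Fn1 (Apol7d) and 3.4% of that of Thbs1 (Gm29233), and without a stated strand setting reads there cannot be told apart. Fbn1, fibrillin 1, the backbone of elastic microfibrils, differed from Fn1 in being nearly silent. It had 0 reads in day 7 replicates 1 and 2 and in day 14 replicate 1, and otherwise 1.11 RPKM in day 7 replicate 3 and 0.249 and 0.186 in day 14 replicates 2 and 3.

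Melanoma and macrophage transcripts also rose between the days, so the 3 genes were compared on scales set by those markers, a choice made after seeing the data. With the summed melanoma markers or the summed macrophage markers as the unit, Cyr61, Thbs1 and Fn1 each stayed called and higher. On the melanoma scale 21 of 6691 genes were higher (0.314%), and on the macrophage scale 19 (0.284%). The lowest log2 fold change among all alternatives was 3.46 for Cyr61, 1.42 for Thbs1 and 0.96 for Fn1. The sum of platelet markers moved the same way, platelets being a known store of the Thbs1 and fibronectin proteins. Pf4 had the highest mean of these markers, and 0 of them reached the filter. The 6 platelet markers summed to 2.01, 2.15 and 5.21 CPM on day 7 and to 22.5, 22.8 and 19.3 on day 14, with Gp9 and Treml1 at 0 reads in every library. Ppbp and Itga2b also had 0 reads on day 7, and the part of platelets in the 3 changes was not tested.

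**Figure D1:**
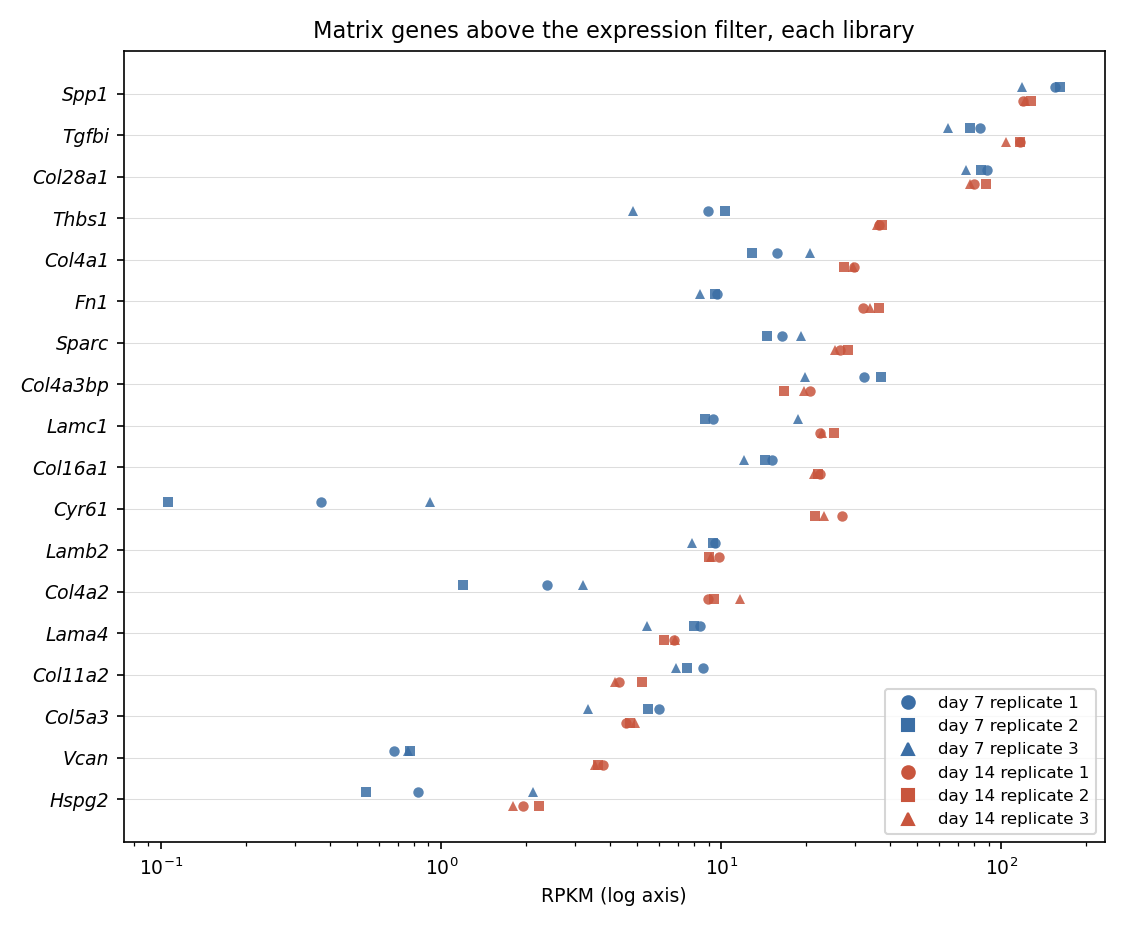
RPKM on a log axis for each of the 18 tested matrix genes in each library, day 7 in blue and day 14 in red, with 1 symbol per replicate number. Cyr61, Thbs1 and Fn1 have day 14 values well to the right of day 7, while Spp1 and Col28a1 overlap between the days at around 100 RPKM.

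**Figure D2:**
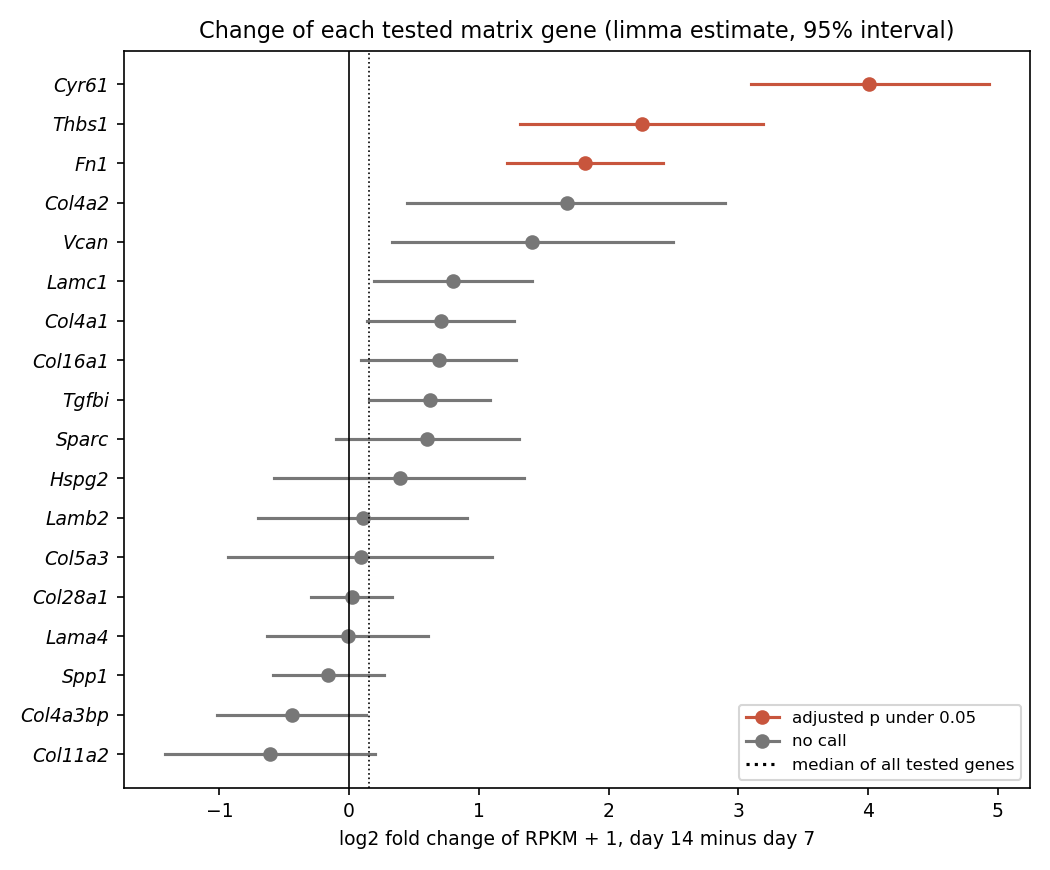
Log2 fold change of RPKM + 1 (day 14 minus day 7) with its 95% interval for the 18 tested matrix genes, from limma, with calls in red and the median of all tested genes as a dotted line. The called genes lie at 4.01, 2.26 and 1.82, and the intervals of Spp1, Lama4 and Col28a1 span 0.

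The most abundant matricellular genes were present at both times. Spp1, osteopontin, which macrophages and melanoma cells are known to secrete, had the highest mean of the set. It was at 155, 162 and 118 RPKM on day 7 and at 119, 127 and 121 on day 14, so that day 7 replicate 3 fell just below the day 14 libraries and replicates 1 and 2 above them. The log2 fold change was -0.16 (interval -0.59 to 0.27, limma adjusted p = 0.717). In the annotation, 18.8% of its length is shared with the same-strand gene model Gm42793, so reads there could be split between them. Tgfbi, a TGF-beta induced protein that binds collagen and integrins, was at 84.0, 77.5 and 64.6 RPKM on day 7 and at 116, 116 and 104 on day 14. Its days did not overlap, yet the log2 fold change of 0.62 (interval 0.15 to 1.09) was not called (limma adjusted p = 0.0935). Sparc, a collagen-binding protein, showed the same layout, with 16.4, 14.6 and 19.2 RPKM on day 7 and 26.5, 28.3 and 25.4 on day 14 (log2 fold change 0.6, limma adjusted p = 0.331). Postn and Tnc, the matricellular proteins of activated fibroblasts, never exceeded 0.846 RPKM.

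Type IV collagen, the network of the basement membrane, was the best represented of the scaffold-forming collagens. Col4a1 was at 15.8, 12.9 and 20.7 RPKM on day 7 and at 29.7, 27.5 and 29.4 on day 14. Its partner chain Col4a2 was at 2.39, 1.2 and 3.2 RPKM on day 7 and at 8.94, 9.38 and 11.7 on day 14. For both genes each day 14 library exceeded each day 7 library, but neither was called. The log2 fold change was 0.71 for Col4a1 (interval 0.14 to 1.27, limma adjusted p = 0.117) and 1.68 for Col4a2 (interval 0.45 to 2.9, limma adjusted p = 0.0822).

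These genes stand head to head on chromosome 8, Col4a1 on the minus strand (11198423 to 11312826) and Col4a2 on the plus strand (11312805 to 11449287), and their products assemble with each other into one protomer. Their first exons share 22 bases, chr8:11312805-11312826 (GRCm38.p6, plus strand, from RefSeq), which is printed because it marks the promoter region that both genes use.

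Shared start: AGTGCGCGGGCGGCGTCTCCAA

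Although the pair starts from one place, the ratio of Col4a1 to Col4a2 in RPKM was 6.62, 10.7 and 6.49 on day 7 and 3.32, 2.93 and 2.51 on day 14. Each day 7 ratio exceeded each day 14 ratio, and the fewest reads behind a ratio were 74 on day 7 and 674 on day 14. The chains confined to certain tissues in the body were scarce. Col4a5 stayed at or under 3.24 RPKM, Col4a3 and Col4a6 each had reads in 1 day 14 library only, and Col4a4 had 0 reads on day 7 and 33 to 67 reads in each day 14 library.

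Among laminins, the gamma-1, beta-2 and alpha-4 chains were the main ones. Lamc1, the gamma chain of most laminins, was at 9.36, 8.77 and 18.8 RPKM on day 7 and at 22.5, 25.2 and 22.9 on day 14. Day 7 replicate 3 lay apart from the other day 7 libraries and near day 14, and the log2 fold change of 0.8 (interval 0.19 to 1.41) was not called (limma adjusted p = 0.1). Lamb2 held 9.45, 9.36 and 7.86 RPKM on day 7 and 9.78, 9.06 and 9.21 on day 14, overlapping between the days (log2 fold change 0.11, interval -0.7 to 0.91, limma adjusted p = 0.915). Lama4, the alpha chain of vessel and tumour laminins, ranged from 5.41 to 8.4 RPKM over all 6 libraries (log2 fold change -0.01, interval -0.63 to 0.61, limma adjusted p = 0.988). Of the other 8 laminin chains none was tested. Singled out after its values were seen, Lama5, the broad alpha chain of vessels and epithelia, had 2, 0 and 8 reads on day 7 and 175, 239 and 164 on day 14. The linkers were low on both days: Hspg2, the core protein of perlecan, held 0.824, 0.54 and 2.12 RPKM on day 7 and 1.96, 2.23 and 1.8 on day 14 (log2 fold change 0.39, limma adjusted p = 0.699). Nid1, nidogen 1, was at 2.7, 2.34 and 0.811 RPKM on day 7 and at 0.93, 2.46 and 1.7 on day 14, and was not tested.

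The fibrillar collagens that fill the stroma of most tumours were nearly absent. Col1a1 did not exceed 1.3 RPKM in any library, Col1a2 0.436 and Col3a1 0.525. Only Col11a2 and Col5a3 among 11 fibrillar chains reached the filter. Col11a2, a minor fibril chain best known from cartilage, was at 8.63, 7.51 and 6.91 RPKM on day 7 and at 4.32, 5.21 and 4.18 on day 14. Its day 7 libraries all lay above those of day 14, but the log2 fold change of -0.61 (interval -1.42 to 0.2) was not called (limma adjusted p = 0.404). Col5a3 was at 6.01, 5.46 and 3.33 RPKM on day 7 and at 4.57, 4.7 and 4.93 on day 14, overlapping (log2 fold change 0.09, limma adjusted p = 0.948).

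Markers of the cells that usually make these fibrils were as scarce. The 10 fibroblast markers summed to 80.6 to 102 CPM on day 7 and 105 to 113 on day 14, most of it from Gsn, which many cells express. Pdpn was at 0.138, 0.236 and 4.89 RPKM on day 7 and at 10.4, 11.7 and 10.4 on day 14, and was not tested. Dpt and Mfap5 had 0 reads in all 6 libraries, Pi16, Clec3b and Dpep1 had 0 on day 7, and Fap had 0 on day 14. Pdgfra did not exceed 0.0477 RPKM. Mural cell markers summed to 20.4 to 53.5 CPM on day 7 and 21.3 to 28.8 on day 14, and endothelial markers to 92.6 to 102 and 92.7 to 108. The small proteoglycans that coat collagen fibrils followed, with Dcn at 0.588 RPKM or less, Lum at 0.339 or less and Bgn at 0.104 or less. Dcn itself had reads in day 7 replicate 3 and in day 14 replicates 1 and 2 only, at 0.588, 0.253 and 0.0382 RPKM. Vcan, versican, the large proteoglycan of inflamed and tumour matrix, was the exception among the proteoglycans. It was at 0.677, 0.772 and 0.763 RPKM on day 7 and at 3.77, 3.64 and 3.53 on day 14. The days were wide apart and the libraries of each day close together, with a mean of 0.744 ± 0.0274 (n = 2) against 3.64 ± 0.12 (n = 3), but the log2 fold change of 1.41 (SE 0.54, interval 0.33 to 2.5) was not called (limma adjusted p = 0.103).

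One collagen did not behave like the rest of its family. Col28a1, which encodes a collagen with von Willebrand factor domains known mainly from the peripheral nerve, was the third highest gene of the set and by far the highest collagen. It was at 89.1, 84.3 and 75 RPKM on day 7 and at 80.0, 88.1 and 77.4 on day 14, from 2400 to 5426 reads. The days overlapped, with a mean of 80.9 ± 8.27 (n = 2) against 81.8 ± 5.58 (n = 3) and a log2 fold change of 0.02 (interval -0.29 to 0.33, limma adjusted p = 0.962). Its model spans 7997808 to 8192617 on the minus strand of chromosome 6, and its exons overlap those of no other gene model. A search of its transcripts against all others gave no match at 95% identity over 100 bases. The files give a total per gene, so where along the gene these reads lie was not analysed here. The other multiplexins and related chains were low, with Col15a1 at 1.66, 1.52 and 0.435 RPKM on day 7 and 2.99, 2.31 and 2.86 on day 14, and Col18a1 at 0.856 to 3.19 over all libraries.

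Collagens that decorate fibrils followed several patterns. Col16a1, which associates with fibrils and microfibrils, was at 15.1, 14.3 and 12 RPKM on day 7 and at 22.5, 22.1 and 21.5 on day 14, with no overlap between the days (log2 fold change 0.69, interval 0.09 to 1.29, limma adjusted p = 0.161). Col20a1 was at 6.1, 6.86 and 1.75 RPKM on day 7 and at 1.42, 2.41 and 1.47 on day 14, with day 7 replicate 3 among the day 14 values. All 3 chains of type IX collagen, the cartilage collagen whose chains Col9a1, Col9a2 and Col9a3 form one trimer, had 0 reads in the 3 day 7 libraries. On day 14 Col9a1 had 14, 37 and 68 reads, Col9a2 34, 84 and 68 and Col9a3 50, 66 and 110, and none passed the filter. The beaded filament collagens of type VI, a common fibroblast product, were low: Col6a1 was at 1.43 and 1.52 RPKM in day 7 replicates 1 and 2 and at 0.0802 or less in the other 4 libraries, and Col6a3 did not exceed 0.213. Col7a1, the anchoring fibril of skin, was at 1.29, 1.13 and 0.179 RPKM on day 7 and 0.803, 1.18 and 0.971 on day 14. Col10a1 had reads in day 14 replicates 1 and 3 only, at 0.393 and 0.144 RPKM. The 4 transmembrane collagens never exceeded 0.532 RPKM, the value of Col17a1 in day 7 replicate 3. Col4a3bp, the transporter that the name pattern took in, was at 32.2, 37.2 and 19.9 RPKM on day 7 and at 20.8, 16.7 and 19.8 on day 14, overlapping between the days (log2 fold change -0.44, limma adjusted p = 0.389).

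**Figure D3:**
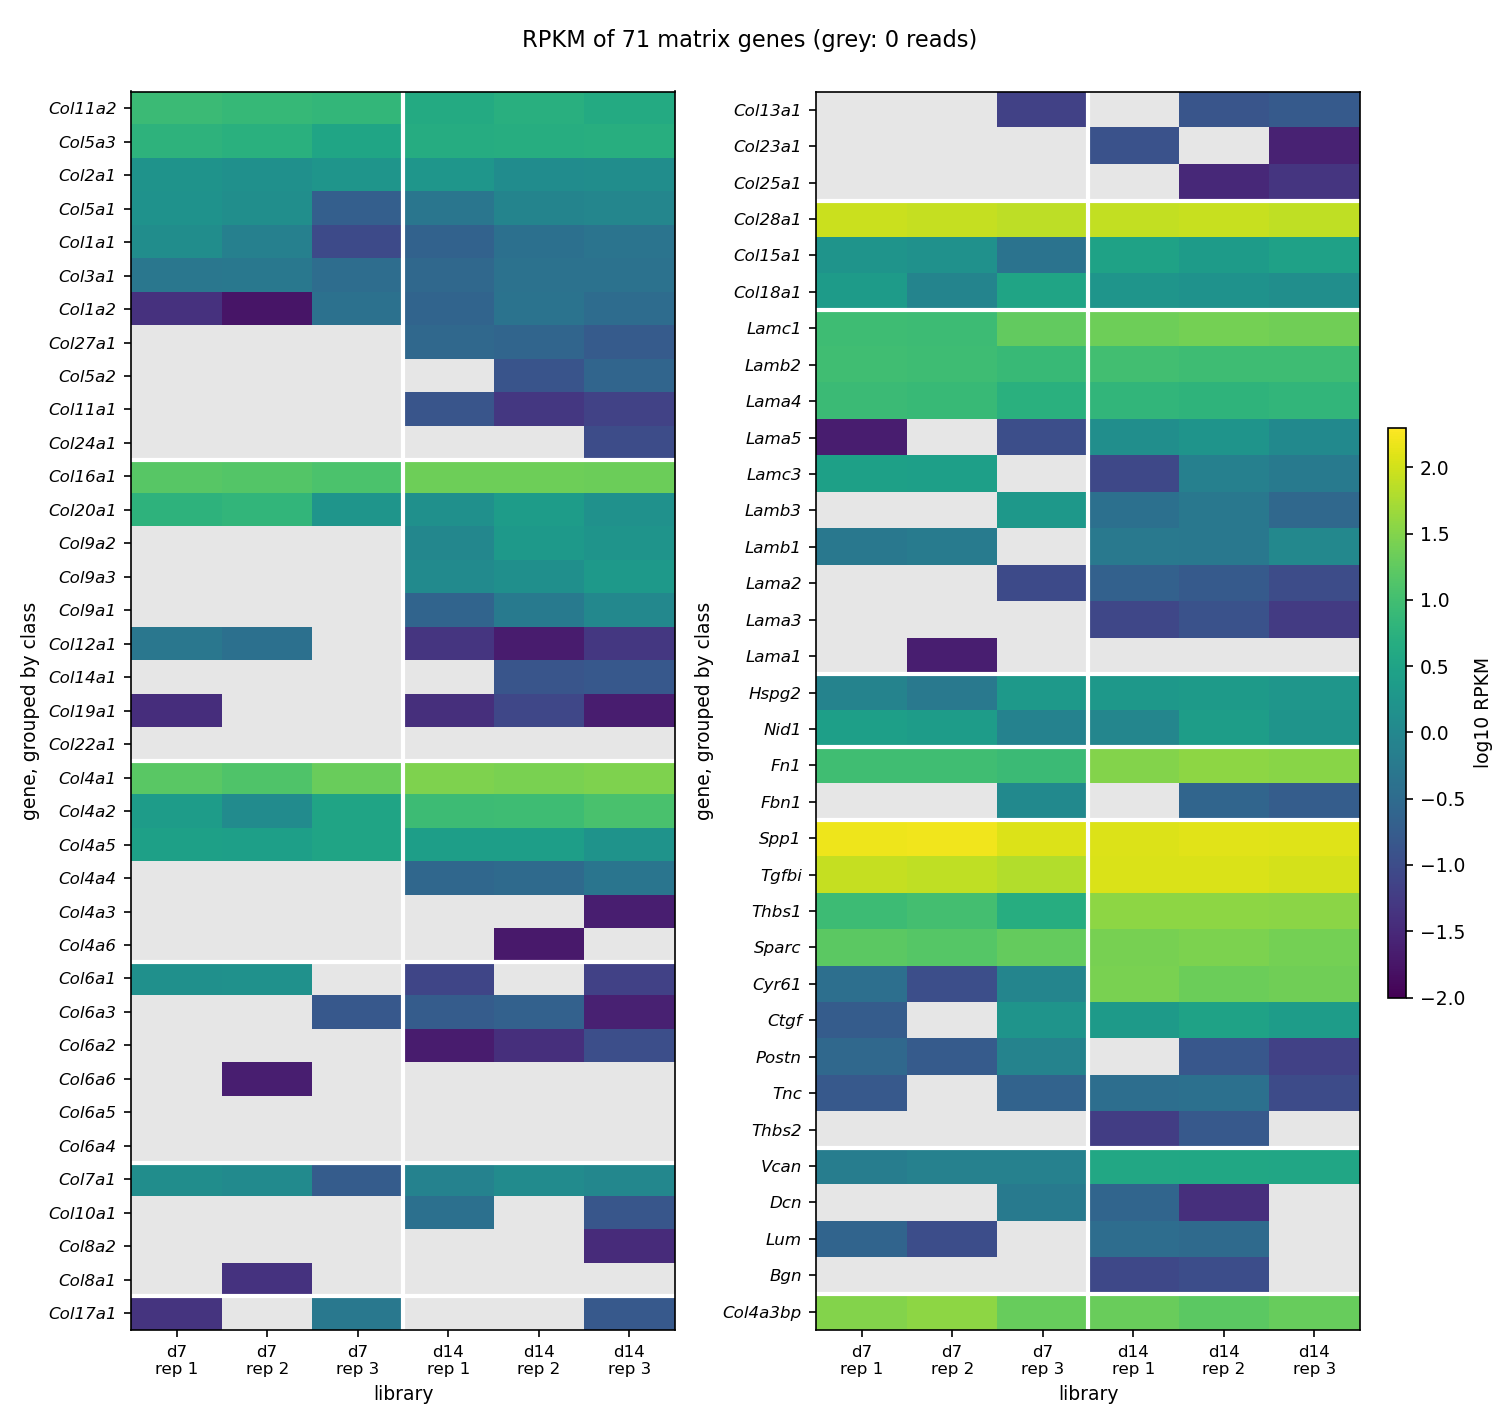
Log10 RPKM of 71 of the 72 matrix genes in the 6 libraries, genes in rows and grouped by class between white lines, with grey for 0 reads. The day 7 columns hold more grey than the day 14 columns, and Col28a1, Spp1 and Tgfbi are the brightest rows.

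More matrix genes were seen at all on day 14. The number with a read was 41, 39 and 41 in the day 7 libraries and 55, 59 and 61 in those of day 14. Across the 3 libraries of a day, 22 genes had no read on day 7 and 6 on day 14, and Col6a4, Col6a5 and Col22a1 had none on either. Reads in every day 14 library and none on day 7 were found for 8 genes, namely Col4a4, Col6a2, Col9a1, Col9a2, Col9a3, Col11a1, Col27a1 and Lama3, while 0 genes showed the reverse. Of the 22716 genes with a read in any library, 8.32% had reads in every day 14 library and none on day 7, and 0.0792% the reverse. Day 7 libraries were shallower and had reads for fewer genes. Day 7 replicates 1 and 2 were close to each other, with a median chi-square ratio of 1.11. Against replicate 3 it was 40.9 for replicate 1 and 44.4 for replicate 2, beside 4.05 to 4.43 between day 14 libraries. If the excess over counting error is read as sampling of molecules, the pairs with day 7 replicate 3 gave 85.3 reads per molecule. The day 14 pairs gave 8.51. The part of depth and of the number of molecules in the zeros was not tested, and no fold is given against a gene at 0. The days did not overlap for 26 of the 72 genes, 22 of them higher and 4 lower on day 14, with Col4a5, Col11a2 and Postn among the latter. Over all genes with a read, 35.6% did not overlap, 27.0% higher and 8.59% lower. Among the tested genes the days did not overlap for 11 of 18 matrix genes and for 49.3% of all, 31.6% higher and 17.8% lower.

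The machinery that makes, cuts and senses matrix was read from lists of named genes in the same fit. For collagen synthesis and crosslinking, 15 of 30 listed genes were tested, 3 rose and 1 fell, with a median log2 fold change of 0.6. At an unadjusted p under 0.05 by limma, 6 were higher and 1 lower. Over all tested genes, 3.65% were called higher and 4.8% lower, and the median was 0.156. Unadjusted, 12.4% of all tested genes were higher and 8.71% lower. Each list below is to be read beside these shares. P4hb, protein disulfide isomerase and the beta subunit of prolyl 4-hydroxylase, was at 253, 256 and 298 RPKM on day 7 and at 428, 428 and 395 on day 14 (log2 fold change 0.6, limma adjusted p = 9.49e-05). Serpinh1, the collagen chaperone HSP47, was at 46.5, 42.9 and 38.4 RPKM on day 7 and at 79.0, 97.3 and 79.9 on day 14 (1.02 on the log2 scale, limma adjusted p = 0.0315). P4ha2, an alpha subunit of prolyl 4-hydroxylase, was at 0.362, 0.275 and 5.65 RPKM on day 7 and at 9.84, 9.74 and 12.6 on day 14 (1.97, limma adjusted p = 0.0411). The value of P4ha2 depended on the day 7 libraries, at 3.14 without replicate 3 and 0.81 (adjusted p = 0.749) without replicates 1 and 2. Serpinh1 lost its call in the same fits (adjusted p = 0.269 and 0.181). On the melanoma marker scale P4hb was called lower (-0.32, limma adjusted p = 0.0179), as were 35.3% of all tested genes. Serpinh1 at 0.12 and P4ha2 at 1.32 lost their calls on that scale. On the macrophage scale the 3 genes stood at -0.26, 0.17 and 1.34 without a call, and median-of-ratios scaling ended the calls of Serpinh1 (adjusted p = 0.108) and P4ha2 (adjusted p = 0.0701). Both calls were also lost by limma with no filter on the mean (adjusted p = 0.087 and 0.184). The same held with a filter of 1 RPKM in 2 samples (0.0523 and 0.126). P4ha2 further lost its call with a pseudocount of 0.1 (0.0664), without weights (0.0956) and without day 14 replicate 2 (0.0533). Adamts14, a procollagen N-proteinase, ran the other way, at 9.56, 9.13 and 10.5 RPKM on day 7 and at 2.55, 1.96 and 1.63 on day 14 (log2 fold change -1.85, limma adjusted p = 0.00118). Scaled to 12 T cell genes (per T cell transcript) its log2 fold change was -0.32 and was not called. The direction of a listed gene that reached 20 CPM on 1 day only is partly set by the filter. This holds for Adamts14, which reached it on day 7 only, and for P4ha2, which reached it on day 14 only. Lox, the crosslinking oxidase, had 0 reads on day 7 and at most 0.0312 RPKM on day 14.

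Among matrix proteases and their inhibitors, 8 of 32 were tested, 2 rose and 0 fell by limma (median log2 fold change 1.17), with 5 higher and 0 lower at an unadjusted p under 0.05, beside 12.4% and 8.71% of all tested genes. Mmp12, the macrophage elastase, was at 1.77, 1.84 and 0.0847 RPKM on day 7 and at 8.71, 9.32 and 8.02 on day 14 (log2 fold change 2.47, SE 0.63, limma adjusted p = 0.0072). With day 7 so far below day 14, the direction of Mmp12 may also be partly set by the filter. The call for Mmp12 was lost by limma-voom (adjusted p = 0.113). It was also lost by limma with no filter on the mean (adjusted p = 0.137) and with a filter of 1 RPKM in 2 samples (0.105). Without day 7 replicate 3 the log2 fold change of Mmp12 was 1.79. Adamts1, a protease that cleaves versican, was at 11.5, 11.7 and 15.3 RPKM on day 7 and at 33.4, 27.1 and 30.3 on day 14 (log2 fold change 1.12, limma adjusted p = 0.0364). Its call was lost with median-of-ratios scaling (limma adjusted p = 0.105) and with no filter on the mean (0.0825). Its log2 fold change was 1.31 without day 7 replicate 3 and 0.93 without day 7 replicates 1 and 2. It stood at 0.25 on the melanoma and 0.3 on the macrophage scale (adjusted p = 0.622 and 0.572).

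Matrix receptors had 17 of 30 genes tested, with 2 higher, 0 lower and a median log2 fold change of 0.42. Over all tested genes 3.65% were higher and 4.8% lower, with a median of 0.156. At an unadjusted p under 0.05 by limma, 4 receptors were higher and 0 lower, beside 12.4% and 8.71% of all tested genes. Cd44, the hyaluronan and osteopontin receptor, was at 24.1, 22.7 and 32.3 RPKM on day 7 and at 58.4, 62.7 and 59.1 on day 14 (log2 fold change 1.1, limma adjusted p = 0.000959). Sdc4, syndecan 4, a co-receptor for fibronectin, was at 22.9, 21.0 and 39.1 RPKM on day 7 and at 78.3, 79.5 and 73.5 on day 14 (1.36, limma adjusted p = 0.00384). Both stayed above 0 on the melanoma marker scale, at 0.21 and 0.47, and on the macrophage scale, at 0.26 and 0.52, without a call. Both also lost their call without day 7 replicates 1 and 2, at adjusted p = 0.0795 for Cd44 and 0.232 for Sdc4. The integrin beta-1 chain Itgb1, singled out as the shared subunit of most matrix integrins, was at 48.3, 49.6 and 92.8 RPKM on day 7 and 71.3, 76.0 and 72.9 on day 14 (limma adjusted p = 0.781).

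Other matrix glycoproteins and proteoglycans had 7 of 46 listed genes tested, 2 of them higher and 0 lower (median log2 fold change 0.92). Over all tested genes 3.65% were higher and 4.8% lower, with a median of 0.156. At an unadjusted p under 0.05 by limma, 3 of the list were higher and 0 lower, beside 12.4% and 8.71% of all tested genes. Sparcl1, a relative of Sparc, was at 172, 188 and 160 RPKM on day 7 and at 236, 249 and 250 on day 14 (log2 fold change 0.53, limma adjusted p = 0.00714). On the melanoma scale Sparcl1 was called lower (-0.39, limma adjusted p = 0.0229), and on the macrophage scale it was at -0.33 without a call. Emilin2, an elastic fibre glycoprotein, was at 6.87, 6.37 and 17.6 RPKM on day 7 and at 39.0, 34.0 and 33.0 on day 14 (1.61, limma adjusted p = 0.0194). Emilin2 stood at 0.75 on the melanoma scale and 0.79 on the macrophage scale (adjusted p = 0.231 and 0.23). With no filter on the mean Emilin2 lost its call (limma adjusted p = 0.0625). Without day 7 replicate 3 neither kept its call, at 0.44 (adjusted p = 0.146) for Sparcl1 and 2.25 (0.0997) for Emilin2. Without replicates 1 and 2 Emilin2 was at 0.97 (adjusted p = 0.395), and median-of-ratios scaling ended the call of Sparcl1 (0.134). In the list of TGF-beta and YAP pathway genes, 11 of 24 were tested and 0 changed by limma, with 0 at an unadjusted p under 0.05, 1 called by limma-voom and a median of 0.15. Axl, the receptor kinase with the highest level of that list, was at 15.4, 15.1 and 16.4 RPKM on day 7 and at 22.0, 18.9 and 16.3 on day 14, overlapping (limma adjusted p = 0.733). Ankrd1, a YAP target often read beside Cyr61 and named after its values were seen, did not exceed 0.451 RPKM in any library.

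**Figure D4:**
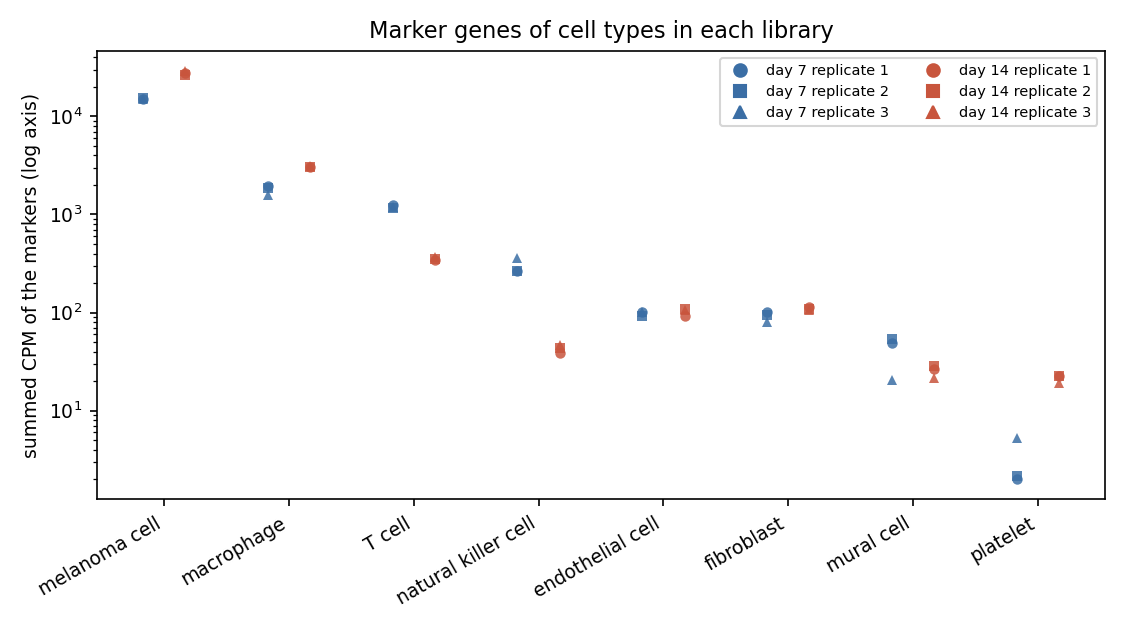
Summed CPM of the marker genes of 8 cell types in each library on a log axis, day 7 in blue and day 14 in red. Melanoma and macrophage sums are higher on day 14, T cell and natural killer cell sums are lower, and fibroblast and endothelial sums stay around 100 CPM on both days.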

How the data were processed

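Libraries were poly-A, strand-specific, paired and made with molecular identifiers, per the labels' protocols. Trimmomatic 0.36, featureCounts of Subread 1.5.1 and GRCm38 are named per the submitters' processing notes. The aligner and strandedness of counting were not given in the sources used here. The authors deposited RPKM per gene. Multiplying by length recovered whole reads for 100% of values (tolerance 0.001), which gave the depths and reads printed. Of the low read numbers, 75.6% to 87.7% per library were even, so many fragments were counted as 2 reads.

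Genes whose mean reached 20 CPM were fitted with limma 3.58.1 in R 4.3.3 on log2(RPKM + 1), with precision weights per day, a variance trend and Benjamini-Hochberg adjustment over all 6691 genes at 0.05; fold changes on this scale understate low genes. Day 7 replicates 1 and 2 were averaged. The fit was tested on simulated data: with reads drawn as amplified molecules 4.89% of calls were false and 52.8% of 4-fold changes were recovered, and with negative binomial reads 13.8% and 72.8%. Each simulation changed 200 genes, as many up as down. These rates therefore do not cover a shift in the cell make-up of the samples between the days. Gene models were those given with the deposited RPKM, and 63 of the 72 genes had identical ends in GENCODE M21. Transcripts of GENCODE M21 were used to search for stretches shared between genes. Promoter windows came from RefSeq (53 of 72 matched).

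Values in every library are given for called genes, those with a mean of 50 RPKM or more and the 2 highest of each class, and for up to 3 called genes in each direction per pathway list. The genes and lists were chosen with earlier results of these data known. Other scalings, filters, weights, a pseudocount of 0.1, limma-voom and left-out libraries were tried as alternatives. 1 gene of the set is counted but not reported singly here.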

Additional observations from a re-analysis of the deposited data

How the results depend on the processing

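Cyr61, Thbs1 and Fn1 kept their direction under all 18 alternatives; Thbs1 and Fn1 stayed called in all 18 and Cyr61 in 17, with limma-voom as the exception (adjusted p = 0.0817; range over its alternatives 1.1e-18 to 0.0817). Where a value moved, the cause was not tested. As reported, there were 565 genes called (244 higher, 321 lower), 3 matrix genes and a median log2 fold change of 0.613 over the tested matrix genes. A pseudocount of 0.1 gave a median of 0.648. Without a filter, 2179 genes were called (11.7% of those tested), 1877 of them higher, with 8 of 62 matrix genes called, all higher, and a median of 0.103; the 5 added were Col4a4, Col9a1, Col9a2, Col9a3 and Col27a1, each at 0 reads on day 7. With a filter of 1 RPKM in 2 samples, 1495 genes were called (11%), 1139 higher, with 5 of 30 matrix genes called, all higher (Col9a2 and Col9a3 added), and a median of 0.494. Without weights 1011 genes were called (601 higher), and 7 matrix genes, all higher, adding Tgfbi, Vcan, Col16a1 and Col4a2. Median-of-ratios scaling, which moved the median of all genes from 0.156 to -0.015, gave 555 calls with 109 higher and 446 lower, and a matrix median of 0.429. Per T cell transcript nearly all genes were called higher, 6364 in all with 6347 higher and 17 lower, and with them all 18 matrix genes (median 2.4). By limma-voom on the recovered reads 1873 genes were called (907 higher, 966 lower), and 11 matrix genes, 9 higher and 2 lower (Col4a3bp and Col11a2), with a median of 0.523.

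With the libraries counted singly 1708 genes were called (986 higher, 722 lower), and 10 matrix genes, all higher. Replicate numbers are shared by the days. The deviations of same-numbered libraries correlated at -0.014, -0.015 and -0.034, and those of differently numbered libraries at -0.026 to 0.042. Because day 7 replicates 1 and 2 are nearly alike, these are not separate checks and cannot decide whether the numbers mark a pairing. With the replicate number as a block, 1349 genes (746 higher, 603 lower) and 9 matrix genes, all higher, were called.

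Each library was left out in turn, which gave matrix medians of 0.579 to 0.656. Where both days kept more than 1 sample, 526 to 574 genes were called, 211 to 245 higher and 315 to 330 lower. The same 3 matrix genes were called in each of those fits. Where day 7 keeps 1 sample, that sample is weighted by the day 7 variance trend of the main fit, which used the libraries left out. Uncalled genes near 0 changed sign in some of these fits: Lama4 ranged from -0.27 to 0.025, Col28a1 from -0.085 to 0.056, Col5a3 from -0.232 to 0.116 and Lamb2 from -0.008 to 0.127.

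Other sign changes were in genes not called in the main fit, and some of these were called after the change of sign. Col28a1 and Col5a3 were at -0.016 and -0.02 with libraries counted singly or with the block. With median-of-ratios scaling Col28a1, Col5a3 and Lamb2 were at -0.168, -0.07 and -0.062, and by limma-voom at -0.181, -0.281 and -0.106. Per T cell transcript Lama4, Col4a3bp, Col11a2 and Spp1 turned to 1.591, 1.354, 0.981 and 1.715. Each was called higher there (limma adjusted p = 3.92e-06, 1.64e-05, 0.0127 and 4.07e-10), as were 94.9% of all tested genes.

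3 alternatives were chosen after seeing the data. Without day 7 replicates 1 and 2 together, 315 genes were called (98 higher), with a matrix median of 0.43, and Lama4, Hspg2 and Spp1 were at 0.249, -0.06 and 0.05. On the melanoma marker scale 2386 genes were called (21 higher, 2365 lower), and 8 matrix genes, of which Lama4, Col4a3bp, Col11a2, Spp1 and Col28a1 made 5 lower, with a median of -0.224. There Sparc, Tgfbi, Lamc1, Col16a1, Hspg2, Col28a1, Col4a1, Col5a3 and Lamb2 were at -0.273, -0.282, -0.066, -0.176, -0.17, -0.887, -0.169, -0.669 and -0.72. On the macrophage marker scale 1986 genes were called (19 higher, 1967 lower), and 7 matrix genes, 4 of them lower, with a median of -0.186. The same 9 genes were at -0.223, -0.229, -0.018, -0.125, -0.15, -0.834, -0.118, -0.622 and -0.671. Low read numbers limit the rest: 54 of 72 matrix genes could not be tested.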
